A study of Mus musculus with 6 samples.

Results

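Low oxygen stabilises the alpha subunits of the hypoxia-inducible factors (HIF), transcription factors that switch on glucose uptake, glycolysis, lactate export and blood vessel growth. Prolyl hydroxylases of the EGLN family use oxygen to mark the alpha subunits for destruction, and several of these enzymes are themselves HIF targets. Glycolysis is active in early limb buds, and cartilage condensations later become hypoxic. The genes described here are 35 named genes of this response and of glycolysis, chosen by symbol with earlier results of these data known. Of these, 33 were found among 18194 genes with a probe set that carries exactly 1 symbol, and the brightest such probe set over the 6 arrays stood for each gene. Eno1 and Gpi1 had none and were not analysed here. The found genes had 74 probe sets of this kind. The only ones of Gapdh were the array's Gapdh control probe sets, so the brightest of those was used.

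The series compared the proximal hindlimb bud, about 500 µm of tissue taken at E11.5, of wild-type and Lmx1b -/- mouse embryos, both of the 129Sv strain. LMX1B is the transcription factor that gives limb mesenchyme its dorsal identity. Each group had 3 pools, 1 array per pool, and a pool held cRNA from the 6 hindlimb buds of 3 embryos, so the spread between single embryos was not seen and p-values measure the spread between pools. The labels give neither the form of the mutant allele nor the sex of the embryos. The brighter Lmx1b probe set read 7.58 to 8.17 in wild-type pools and 4.23 to 4.62 in null pools. Markers of limb mesenchyme were present in every pool, with mean levels of 7.85 to 11.1 over 9 measured genes. Levels are log2 RMA values, on which a difference of 1 is a doubling. The arrays ran from 1.77 to 13.7 with medians near 5, and 4 of the 33 genes (Adm, Pfkp, Car9 and Bhlhe40) had means below 5. Values from different probe sets are not compared as levels. In whole tissue, more cells of a type and more RNA per cell cannot be told apart.

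The genes were high together in 1 pool. Wild-type pool 3 was the highest of the 6 pools for 32 of the 33 genes, against 16.4% of all genes, and Hif1a was the exception. The median gene stood 0.71 above the mean of the other 5 pools in wild-type pool 3, and the excess ran from -0.01 for Hif1a to 1.64 for Slc16a3. For 23 genes the excess was at least 0.5, which held for 0.747% of all genes. In 26 genes wild-type pool 3 exceeded the next pool by more than the full range of the other 5, as it did for 1.82% of all genes. With 1 pool there is no replicate, and the genes were chosen with earlier results for that pool known. These values are therefore a description of that pool and not a test. The other 5 pools lay close together, with a median range among them of 0.27, compared with 0.25 for all genes. Set against all remaining pools, their medians were -0.20, -0.06, -0.07, -0.18 and -0.19 for wild-type pools 1 and 2 and null pools 1, 2 and 3. Those remaining pools include wild-type pool 3, which lowers each of these medians.

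**Figure D1:**
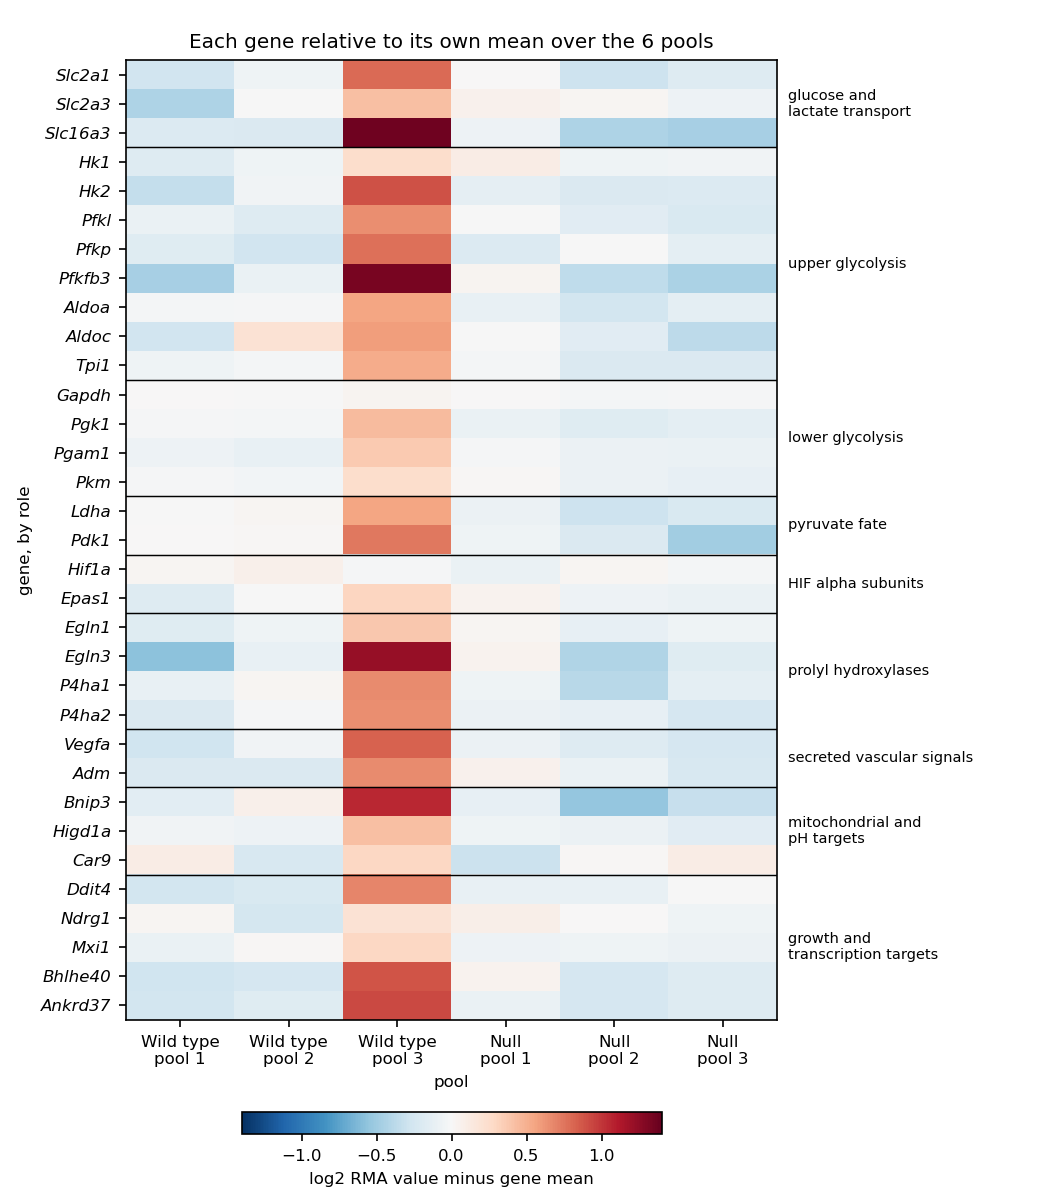
Heat map of the 33 genes (rows, by role) in the 6 pools (columns); colour gives the log2 RMA value minus the gene's own mean. The column of wild-type pool 3 is the reddest for most genes, while Hif1a and Gapdh are nearly colourless in every pool.

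Among 10947 genes with a mean of at least 5, ranked by how far wild-type pool 3 lay above the next pool, 7 of the first 10 and 22 of the first 50 were listed hypoxia or glycolysis genes. As the list was made with earlier results for this pool known, these counts describe the pool and are not separate evidence. Slc16a3, Pfkfb3, Egln3, Ankrd37, Bnip3 and Hk2 held ranks 2 to 7. Rank 1 was Ppp1r3c, which encodes a glycogen-targeting phosphatase subunit and is another known hypoxia gene. In pool order, as throughout below, its values were 4.74, 4.67 and 6.68 in wild-type and 4.74, 4.75 and 4.84 in null pools.

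HIF binds DNA at a short core, ACGTG or GCGTG. Promoter windows from RefSeq (GRCm38.p6), 250 bases before to 50 after a start site, were found for 29 of the 33 genes. The core, searched on both strands with overlapping matches merged, was present for 28 of the 29 genes (96.6%), against 59.3% of 14453 tested genes with a window. By window the shares were 82.5% of 40 and 54.6% of 18110 for tested genes. The core contains a CG pair, and the members' windows were richer in G and C, at a median of 64.8% against 58.3% for tested genes. They also held more CG pairs, a median of 22 against 16. The part of this base composition in the shares was not tested. A palindromic match, CACGTG, is also the E-box read by MYC and BHLHE40, and stood in 4 of the 40 windows (10%) and in 8.72% of those of tested genes. The windows below belong to the 6 genes of mean at least 5 with the largest excess in wild-type pool 3 and to Hif1a, the gene without one. The window with the most matches is shown, on the strand of the gene, with matches on either strand in capitals.
Slc16a3 (chr11:120948817-120949116, plus strand): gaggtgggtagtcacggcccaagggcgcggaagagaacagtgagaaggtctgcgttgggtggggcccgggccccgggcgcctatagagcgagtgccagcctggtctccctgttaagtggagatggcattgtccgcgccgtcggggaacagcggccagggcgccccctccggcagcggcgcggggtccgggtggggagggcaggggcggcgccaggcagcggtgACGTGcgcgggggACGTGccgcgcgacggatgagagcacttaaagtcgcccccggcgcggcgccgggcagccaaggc
Pfkfb3 (chr2:11502041-11502340, minus strand): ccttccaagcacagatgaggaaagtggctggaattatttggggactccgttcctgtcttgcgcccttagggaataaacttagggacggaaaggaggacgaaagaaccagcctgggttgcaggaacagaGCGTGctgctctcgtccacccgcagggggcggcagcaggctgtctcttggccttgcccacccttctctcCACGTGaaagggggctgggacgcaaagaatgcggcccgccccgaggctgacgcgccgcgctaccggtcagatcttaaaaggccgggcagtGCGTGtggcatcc
Egln3 (chr12:54203825-54204124, minus strand): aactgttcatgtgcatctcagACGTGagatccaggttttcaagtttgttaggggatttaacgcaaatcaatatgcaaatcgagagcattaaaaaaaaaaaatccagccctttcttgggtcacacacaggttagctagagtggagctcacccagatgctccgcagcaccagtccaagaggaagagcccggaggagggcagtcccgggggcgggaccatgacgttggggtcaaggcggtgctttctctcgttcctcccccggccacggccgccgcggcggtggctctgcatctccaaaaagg
Bnip3 (chr7:138909457-138909756, minus strand): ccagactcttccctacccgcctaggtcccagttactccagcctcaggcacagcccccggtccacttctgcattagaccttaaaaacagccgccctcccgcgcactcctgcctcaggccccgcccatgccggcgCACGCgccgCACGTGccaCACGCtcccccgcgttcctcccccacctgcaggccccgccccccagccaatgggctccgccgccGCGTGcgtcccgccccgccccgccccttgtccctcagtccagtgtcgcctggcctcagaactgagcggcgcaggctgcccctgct
Ankrd37 (chr8:45999801-46000100, minus strand): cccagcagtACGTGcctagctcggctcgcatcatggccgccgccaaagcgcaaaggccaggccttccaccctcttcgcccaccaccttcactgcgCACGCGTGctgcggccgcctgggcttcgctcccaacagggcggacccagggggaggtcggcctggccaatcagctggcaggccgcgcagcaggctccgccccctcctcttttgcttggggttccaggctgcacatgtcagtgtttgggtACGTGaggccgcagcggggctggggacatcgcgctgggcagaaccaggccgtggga
Hk2 (chr6:82774405-82774704, minus strand): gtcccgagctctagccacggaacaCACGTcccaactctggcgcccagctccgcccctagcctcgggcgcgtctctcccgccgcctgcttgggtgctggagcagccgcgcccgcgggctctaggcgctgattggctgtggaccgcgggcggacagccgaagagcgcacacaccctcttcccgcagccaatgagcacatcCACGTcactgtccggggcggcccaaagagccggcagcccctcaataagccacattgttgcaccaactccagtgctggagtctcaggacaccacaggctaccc
Hif1a (chr12:73907617-73907916, plus strand): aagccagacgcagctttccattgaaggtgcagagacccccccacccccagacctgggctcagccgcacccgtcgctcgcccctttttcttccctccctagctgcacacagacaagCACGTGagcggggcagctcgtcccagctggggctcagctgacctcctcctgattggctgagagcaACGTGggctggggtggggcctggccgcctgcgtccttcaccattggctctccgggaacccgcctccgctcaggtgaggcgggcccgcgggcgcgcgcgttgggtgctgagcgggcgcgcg
All of them held the core, Hif1a included, so these letters did not separate Hif1a from the genes with the large excess. The matches nearest the start site began 6 bases before it in Ankrd37, 14 in Slc16a3 and 35 in Bnip3. Bnip3 held 4 matches, Ankrd37 and Pfkfb3 3 each, Slc16a3, Hk2 and Hif1a 2 each and Egln3 1. Of the members with a window, Tpi1 alone had no match, and it stood 0.62 higher in wild-type pool 3. A match is a run of letters and not a measured binding site.

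The transporters that bring in glucose and export lactate included the gene with the largest excess. Slc16a3, the lactate exporter MCT4, read 6.85, 6.85 and 8.41 in wild-type and 6.97, 6.62 and 6.59 in null pools. Wild-type pool 3 thus stood 3.11-fold above the mean of the other 5, and wild-type pools 1 and 2 lay inside the null range. Slc2a1, the glucose transporter GLUT1, read 8.76, 8.96 and 9.82 in wild-type and 9.03, 8.74 and 8.84 in null pools. Slc2a3, the glucose transporter GLUT3, read 9.55, 9.99 and 10.42 in wild-type and 10.05, 10.02 and 9.92 in null pools. For Slc2a3 the lowest pool was also a wild-type one, so the group means were level, at 9.99 ± 0.43 and 9.99 ± 0.07 (SD, n = 3).

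Of the enzymes of upper glycolysis, which spend ATP to split glucose, all 8 measured were highest in wild-type pool 3, by 0.30 (Hk1) to 1.59 (Pfkfb3) over the other 5 pools. Pfkfb3 makes the sugar phosphate that activates phosphofructokinase. It read 6.14, 6.51 and 7.93 in wild-type and 6.65, 6.25 and 6.16 in null pools. Hk2, the inducible hexokinase, read 7.73, 8.02 and 8.96 in wild-type and 7.94, 7.87 and 7.88 in null pools. Hk1, the hexokinase found in most tissues, stood 1.23-fold above the other 5 pools in wild-type pool 3, compared with 2.10-fold for Hk2. Aldoc, the aldolase known from brain, read 5.35, 5.82 and 6.20 in wild-type and 5.61, 5.46 and 5.24 in null pools. For Aldoc the second wild-type pool lay above all null pools too. The phosphofructokinase genes Pfkl and Pfkp were 1.72-fold and 1.90-fold above the other 5, Aldoa 1.58-fold and Tpi1 1.54-fold.

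Enzymes of lower glycolysis, which earn ATP, had smaller excesses, of 0.05 (Gapdh) to 0.53 (Pgk1). Pgk1, phosphoglycerate kinase, read 11.71, 11.70 and 12.17 in wild-type and 11.63, 11.56 and 11.59 in null pools. All null values of Pgk1 lay below all wild-type values on this probe set, while on its next brightest null pool 1 (11.32) lay above wild-type pool 1 (11.28). Pgam1, phosphoglycerate mutase, read 10.62, 10.59 and 11.05 in wild-type and 10.67, 10.61 and 10.60 in null pools. Pkm, pyruvate kinase, read 11.99, 11.97 and 12.25 in wild-type and 12.02, 11.93 and 11.89 in null pools. Both had null values above the lower wild-type ones. Gapdh read 13.04 to 13.11 in every pool, close to the top of the array range of 13.7. Over the 33 genes the excess was smaller for brighter probe sets (Spearman rho -0.44, Pearson r -0.43 across genes, which share the same 6 arrays). Without Gapdh and Hif1a the Spearman rho was -0.36.

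Pyruvate is turned to lactate by lactate dehydrogenase A (Ldha) and kept out of the mitochondrion by PDK1, which inhibits pyruvate dehydrogenase. Ldha read 11.42, 11.45 and 11.98 in wild-type and 11.34, 11.13 and 11.21 in null pools. Pdk1 read 8.12, 8.14 and 8.86 in wild-type and 8.06, 7.91 and 7.64 in null pools. On these probe sets every null pool lay below every wild-type pool in both genes, with or without wild-type pool 3. On the next brightest of Pdk1, null pool 1 (7.89) lay above wild-type pool 1 (7.86).

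Of the HIF alpha subunits, Hif1a read 9.88, 9.93 and 9.84 in wild-type and 9.77, 9.88 and 9.83 in null pools, and its brightest remaining probe set was 0.19 below the other 5 pools in wild-type pool 3. Hif1a is known to be controlled mainly through its protein, which these arrays do not read. Epas1, which encodes HIF2A and is strong in endothelium, read 7.43, 7.61 and 7.92 in wild-type and 7.66, 7.55 and 7.53 in null pools.

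**Figure D2:**
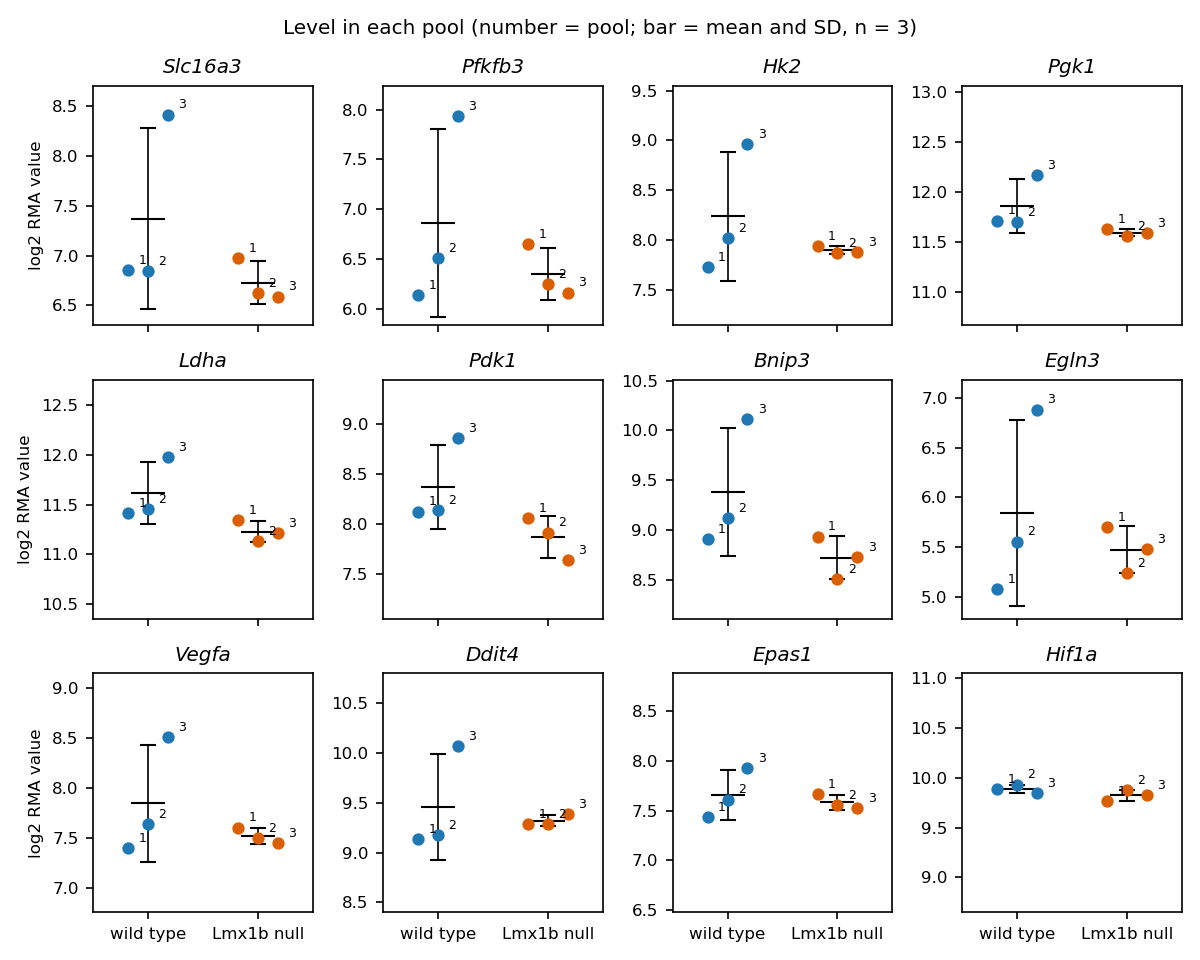
Log2 RMA value of 12 of the genes in each pool (points, numbered by pool), with group mean and SD (bars, n = 3); every panel spans the same height. Wild-type pool 3 stands above both groups in 11 panels, and in the Hif1a panel the 6 pools lie between 9.77 and 9.93.

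The prolyl hydroxylases were higher in wild-type pool 3 by 0.45 to 1.47. Egln3, an oxygen sensor gene strongly induced by HIF, read 5.08, 5.56 and 6.88 in wild-type and 5.70, 5.24 and 5.48 in null pools. Egln1, the main HIF prolyl hydroxylase, read 8.61, 8.71 and 9.15 in wild-type and 8.80, 8.66 and 8.71 in null pools. In both genes wild-type pool 1 was the lowest pool and wild-type pool 3 the highest. P4ha1 and P4ha2 encode the catalytic subunits of the enzymes that hydroxylate collagen. P4ha1 read 7.96, 8.09 and 8.73 in wild-type and 8.01, 7.67 and 7.92 in null pools. P4ha2 read 7.26, 7.45 and 8.12 in wild-type and 7.38, 7.35 and 7.22 in null pools. Null and wild-type values of both overlapped on the probe sets used. On the other probe set of P4ha1, all null pools (5.27 to 5.77) lay below all wild-type pools (5.86 to 6.55).

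Vegfa, the growth factor that draws in blood vessels, read 7.40, 7.63 and 8.51 in wild-type and 7.60, 7.50 and 7.45 in null pools. Adm, the vasodilator adrenomedullin, read 4.53, 4.53 and 5.39 in wild-type and 4.79, 4.64 and 4.51 in null pools. For both secreted signals, wild-type pool 1 lay below 2 or more null pools. Bnip3, a receptor for the removal of mitochondria, read 8.91, 9.12 and 10.11 in wild-type and 8.94, 8.51 and 8.73 in null pools. Higd1a, a protein of the mitochondrial inner membrane, read 9.23, 9.21 and 9.70 in wild-type and 9.22, 9.19 and 9.12 in null pools. Car9, the surface carbonic anhydrase that handles acid, lay below the array medians, at 4.69, 4.36 and 4.87 in wild-type and 4.28, 4.60 and 4.68 in null pools. Car9 followed the other genes least after Hif1a, with a correlation of 0.48 over the 6 pools.

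Of the targets acting on growth and transcription, Ankrd37, an ankyrin repeat protein gene, read 5.47, 5.56 and 6.66 in wild-type and 5.64, 5.49 and 5.55 in null pools. Bhlhe40, a transcriptional repressor of the circadian and hypoxia responses, read 4.04, 4.10 and 5.21 in wild-type and 4.38, 4.09 and 4.15 in null pools. Mxi1, a MYC antagonist, read 8.08, 8.20 and 8.46 in wild-type and 8.11, 8.12 and 8.09 in null pools. Wild-type pool 3 was again the one apart in all of them. Ddit4, an inhibitor of the mTOR growth pathway, was 1.76-fold above the other 5 pools there. The probe sets of Ndrg1, a stress-responsive gene, disagreed. The one used was 0.25 above the other 5 pools in wild-type pool 3, and the remaining 4 were 0.69 to 1.31 above. With all pools they differed in the sign of the genotype change too, at 0.0097 on the one used and -0.26 to 0.0023 on the others. Without wild-type pool 3 every probe set of Ndrg1 was higher in null pools. The log2 change was then 0.12 on the one used and 0.14 to 0.41 on the others, with a smallest limma adjusted p of 0.249 over all probe sets. Beside the probe sets used, the 33 listed genes had 28 further ones with a mean of at least 5. Of these, 26 were also higher in wild-type pool 3 than the mean of the other pools, and no such share was counted over all probe sets.

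How closely the genes followed each other was read as the correlation of each gene, over pools, with the mean of the other 32. The median was 0.97 over 6 pools, and 29 of 33 genes were above 0.8, against 3.50% of 18161 other genes, which were correlated with the mean of all 33. Without wild-type pool 3 the median was 0.61 over 5 pools and 5 genes (15.2%) were above 0.8, against a median of 0.13 and 6.22% for the other genes. Vegfa (0.99) and Ankrd37 (0.99) stayed at 0.86 and 0.80. Pfkfb3 and Slc2a1, both 0.99, stayed at 0.97 and 0.93. Pfkp and Ddit4 went from 0.93 and 0.94 to -0.70 and -0.24, and Car9 to -0.98. The spread within groups showed the same unevenness. The median SD of the 33 genes was 0.42 among wild-type and 0.083 among null pools, compared with 0.088 and 0.084 for all genes. For 32 of the 33 genes the wild-type SD was the larger, as for 53.1% of all genes.

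Whether the genes differed between genotypes was asked with limma over all 18194 genes. None of the 33 passed an adjusted p of 0.05, while 19 genes (0.104%) did, and the smallest adjusted p among them was 0.457, for Ldha. At an unadjusted p under 0.05 there were 3, Ldha, Pdk1 and Bnip3, or 9.09% against 9.8% of all genes. That count rested on single pools: it was 12 without wild-type pool 1, 5 without wild-type pool 2, 2 without wild-type pool 3 or null pool 1, and 0 without null pool 2 or 3. For these fits the share of all genes is given only without wild-type pool 3 (below), so the counts are not read as particular to the 33. The number of all genes past the adjusted threshold moved too, from 4 without null pool 1 to 37 without wild-type pool 1. At the level of probe sets none of the 74 passed, against 0.0844% of 45040. The null mean was below the wild-type mean for 31 of 33 genes, against 43% of all genes, and the median change was -0.25 (all genes 0.02). Without wild-type pool 3 it was 17 of 33, against 40.9% of all genes, and the median change was -0.00046 (all genes 0.03).

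**Figure D3:**
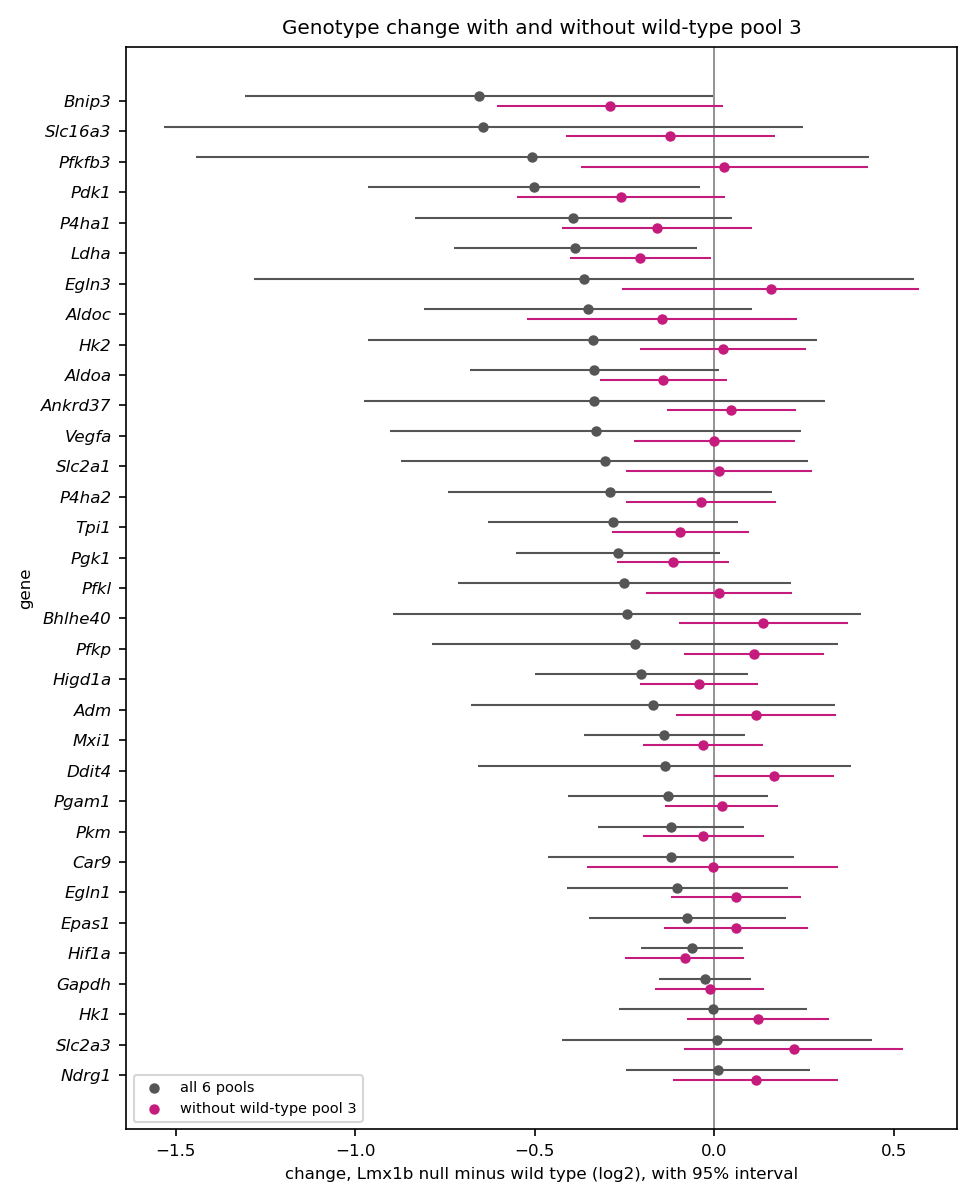
Log2 change of each gene, as null less wild type, with its 95% interval from the limma fit, using all 6 pools (grey) and without wild-type pool 3 (magenta). With all pools 31 points lie below 0, and without that pool 17 do, with intervals a median of 0.41 wide instead of 0.88.

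The largest changes were those of Bnip3, -0.66 (SE 0.28; limma adjusted p = 0.508), and Slc16a3, -0.64 (SE 0.39; adjusted p = 0.618). Pfkfb3 (-0.51), Pdk1 (-0.50), P4ha1 (-0.39), Ldha (-0.39), Egln3 (-0.36) and Aldoc (-0.35) followed. Hk2 (-0.34), Aldoa (-0.33), Ankrd37 (-0.33), Vegfa (-0.33), Slc2a1 (-0.31), P4ha2 (-0.29), Tpi1 (-0.28), Pgk1 (-0.27) and Pfkl (-0.25) were next. Bhlhe40 (-0.24), Pfkp (-0.22), Higd1a (-0.20), Adm (-0.17), Mxi1 (-0.14), Ddit4 (-0.14), Pgam1 (-0.13), Pkm (-0.12), Car9 (-0.12) and Egln1 (-0.10) had smaller values. Epas1 (-0.07), Hif1a (-0.06), Gapdh (-0.03), Hk1 (-0.0040), Slc2a3 (0.0072) and Ndrg1 (0.0097) were nearest 0, and the last 3 took either sign under other processing.

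By construction, leaving out wild-type pool 3 raised the change of each gene highest there. No count of smaller changes was made over all genes. Without that pool 28 of the 33 changes were smaller in size. None passed (7 of all genes did, 0.0385%), and 1 gene in each direction had an unadjusted p under 0.05, or 3.03% each, against 5.17% (lower) and 6.38% (higher) of all genes. These were Ldha, at -0.21 (SE 0.08; 95% interval -0.40 to -0.01; limma adjusted p = 0.414), and Ddit4, at 0.17 (SE 0.07; adjusted p = 0.433), with Ddit4 now higher in null pools. Bnip3 stood at -0.29 (interval -0.60 to 0.02), Pdk1 at -0.26 (-0.55 to 0.03) and Slc16a3 at -0.12 (-0.41 to 0.17). Vegfa stood at -0.00046 (-0.23 to 0.22), Slc2a1 at 0.01, Hk2 at 0.02 and Pfkfb3 at 0.03. These unadjusted intervals included 0 for every gene but Ldha and Ddit4. They differed in width, from genes such as Pgk1 (-0.27 to 0.04) and Pkm (-0.20 to 0.14) to Egln3 (-0.26 to 0.57). The order of single pools gave few complete separations. On the probe sets used, all null pools lay below all wild-type pools for Aldoa, Pgk1, Ldha and Pdk1, 12.1% of the members against 5.44% of all genes. Against wild-type pools 1 and 2 alone this held for those 4 and Hif1a, 15.2% against 11.8%. Another probe set of P4ha1, Tpi1, Higd1a and Gapdh also had every null pool below every wild-type pool. All null pools lay above wild-type pools 1 and 2 for Ddit4 alone among the probe sets used, 3.03% against 17.2%. The same held for 3 of the other 4 probe sets of Ndrg1, and for a dim probe set of Pfkl (mean 4.85) and of Pfkfb3 (mean 4.52).

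By role and without wild-type pool 3, the median change was -0.23 for the pyruvate pair and -0.04 for the mitochondrial and pH genes. It was -0.01 for the HIF alpha subunits, -0.02 for lower and 0.02 for upper glycolysis, 0.01 for transport, 0.01 for the prolyl hydroxylases, 0.06 for the vascular signals and 0.12 for the growth and transcription genes.

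Further genes of the pathway were counted in the same fit, and none of any list passed. Of 56 other hypoxia response genes, 33 were highest in wild-type pool 3 (58.9%, against 16.4% of all genes), and their median excess over the other 5 pools was 0.21. With all pools 41 of the 56 were lower in null pools, and without wild-type pool 3 30 were. Ppp1r3c (change -0.59) had an excess of 1.93, and Ak4, a mitochondrial adenylate kinase gene (-0.48), one of 1.03. Lox, the collagen cross-linking enzyme gene, went another way. It read 6.20, 7.19 and 7.19 in wild-type and 5.77, 5.72 and 5.67 in null pools, so its change of -1.15 (SE 0.24; limma adjusted p = 0.204) was -0.98 without wild-type pool 3.

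Of 16 further genes of the machinery that regulates HIF, 3 were highest in wild-type pool 3 (18.8%), with a median excess of -0.0045. Cited2, a HIF competitor (0.21), Hif1an, the asparagine hydroxylase gene (-0.16), and Cul2 (-0.14), of the complex that degrades HIF, had the largest genotype changes. The largest excesses were those of Siah2 (0.35), a ubiquitin ligase gene, Hif3a (0.14) and Hif1an (0.12).

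The other glycolysis and pyruvate genes, isoforms not named above, had 5 of 29 highest in wild-type pool 3 (17.2%), with Pdp2, Pfkm and Pdk3 leading, each at 0.14. Hkdc1 (0.31), Eno3 (-0.29) and Slc16a1 (-0.18), the lactate and pyruvate carrier MCT1, had the largest genotype changes. The muscle phosphofructokinase Pfkm thus stood at 0.14 where its paralogues Pfkl and Pfkp stood at 0.78 and 0.92. In the pentose phosphate pathway 2 of 7 genes were highest in that pool. There H6pd (0.25), Rpia (0.10) and Tkt (0.04) led, with genotype changes of -0.08, -0.10 and -0.07.

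For mitochondrial oxidation, of 45 respiratory chain and ATP synthase genes, 4 were highest and 7 lowest in wild-type pool 3, with a median excess of -0.02. Ndufa6 (0.13), Atp5d (0.08) and Ndufb5 (0.06) had the largest excesses among genes of mean at least 5. Cox4i2, the cytochrome oxidase isoform known to respond to hypoxia, was dimmer and read 4.57, 4.54 and 5.26 in wild-type and 4.96, 4.94 and 4.72 in null pools. Cox7c (-0.19), Cycs (0.12) and Cox4i2 (0.08) had the largest genotype changes. Of 17 citric acid cycle genes, 5 were highest and 6 lowest in that pool, with Idh2 (0.08), Suclg2 (0.07) and Ogdh (0.07) leading and Sucla2 (-0.21), Dld (-0.19) and Fh1 (0.07) having the largest genotype changes.

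**Figure D4:**
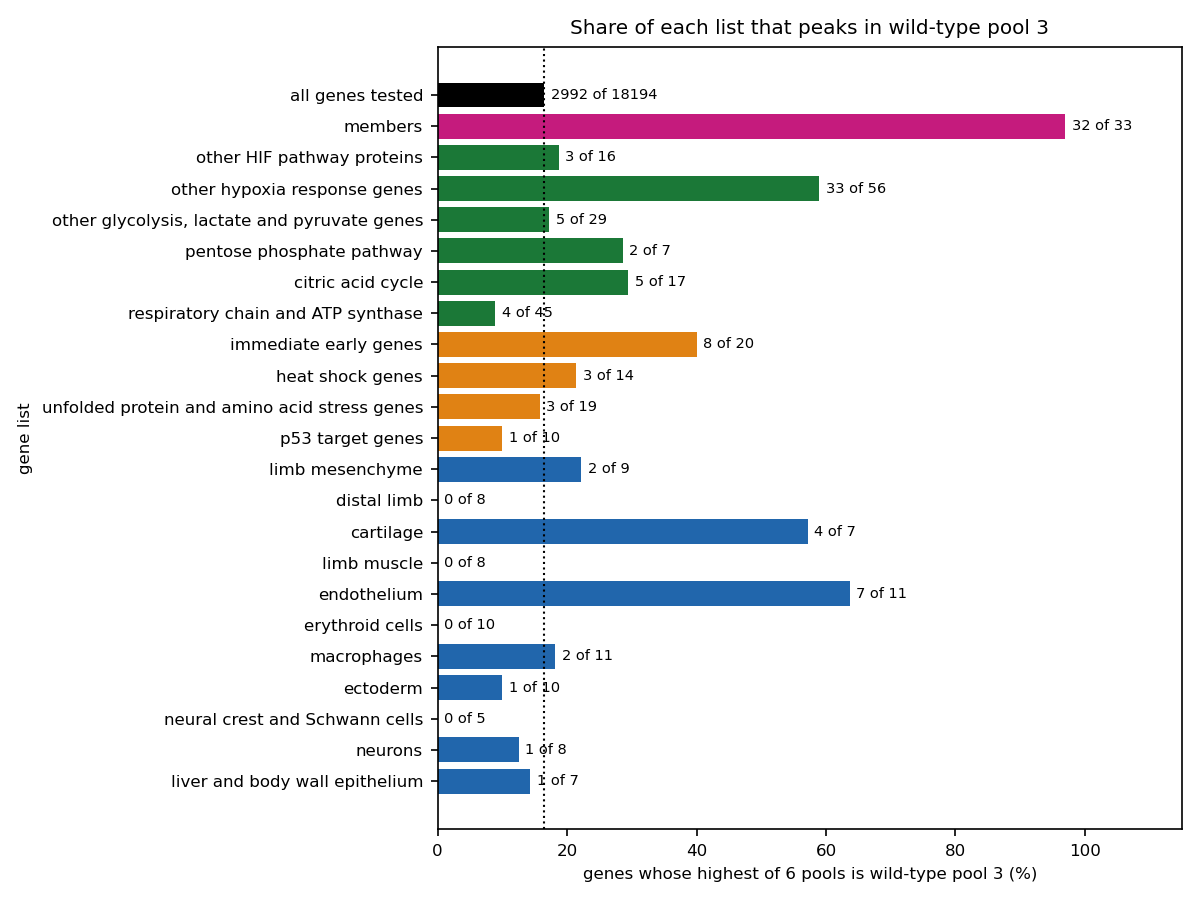
Share of the genes of each list whose highest value of the 6 pools was that of wild-type pool 3, with counts; the dotted line marks all genes tested (16.4%). The 33 genes (labelled members, 32) and the other hypoxia response genes (33 of 56) reach far past the line, with 7 of 11 endothelial and 4 of 7 cartilage genes.

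Other stress responses were looked at in the same way. Immediate early genes, which react within minutes of handling, had 8 of 20 highest in wild-type pool 3 with a median excess of 0.09, led by Klf4 (0.45), Zfp36 (0.29) and Klf6 (0.16). Heat shock genes had 3 of 14 with a median of -0.03, led by Bag3 (0.32), Hspa1b (0.27) and Hspb1 (0.09). The unfolded protein and amino acid stress list had 3 of 19 with a median of -0.05, led by Vegfb (0.29), itself a vascular growth factor, Ddit3 (0.26) and Shmt2 (0.12). The p53 targets had 1 of 10 with a median of -0.02, led by Bbc3 (0.11), Phlda3 (0.07) and Mdm2 (0.04). No gene of these lists passed between genotypes. The largest changes were those of Egr1 (0.27), Fosb (0.23), Junb (-0.22), Hspa1b (-0.22), Cryab (0.20), Hsp90aa1 (-0.17), Hsp90b1 (-0.20), Ddit3 (-0.14), Sesn2 (0.13), Pmaip1 (0.36), Cdkn1a (0.21) and Ccng1 (-0.11).

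Markers of other cell types were read in the same way. Endothelial markers, on average 7.14 in wild-type pool 3, 6.99 to 7.06 in the other wild-type and 6.85 to 6.88 in null pools, had 7 of 11 genes highest in wild-type pool 3 and a median excess of 0.24. All 11 had a lower mean in null pools, and 10 without wild-type pool 3, with median changes of -0.18 and -0.12. Of all genes, 43% were lower in null pools. Fewer were lower among limb muscle (2 of 8; median change 0.38), ectoderm (1 of 10; 0.11) and neuronal markers (0 of 8; 0.10). The same held for neural crest and Schwann cells (0 of 5; 0.17), erythroid cells (3 of 10; 0.05), macrophages (4 of 11; 0.03) and liver and body wall epithelium (2 of 7; 0.06). Cartilage (5 of 7; -0.06), distal limb (5 of 8; -0.02) and limb mesenchyme (5 of 9; -0.01) had more genes lower. In wild-type pool 3, cartilage markers had 4 of 7 genes highest and a median excess of 0.13. Erythroid markers averaged 7.38 in wild-type pool 3, against 7.31 and 7.36 in the other wild-type and 7.23 to 7.52 in null pools, with 0 of 10 highest there. Macrophage markers (2 of 11; -0.01), ectoderm (1 of 10; -0.02), neurons (1 of 8; -0.05) and liver and body wall epithelium (1 of 7; -0.09) lay near or below the share of all genes. Limb muscle (-0.07), distal limb (0.07), and neural crest and Schwann cells (0.01) had no gene highest in that pool, and limb mesenchyme had 2 of 9 (0.03). The part of endothelial or cartilage cells in the excess was not tested.

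The array of wild-type pool 3 did not stand apart as a whole. Its correlations with the other arrays over all probe sets ran from 0.995 to 0.997, within the 0.993 to 0.997 of all pairs. The 3' minus 5' difference of the control probe sets, a sign of RNA breakdown, was 0.08 for Gapdh and 0.24 for Actb there, and 0.08 to 0.19 and 0.21 to 0.33 in the other pools. Xist, which is made from the inactive X of female cells, read 4.72 in wild-type pool 3 and 4.68 in wild-type pool 1, against 9.16 to 10.79 in the other 4 pools. Wild-type pool 1, also low in Xist, had the 33 genes at a median of -0.20 relative to the other pools, wild-type pool 3 included. The part of embryo sex in the excess of wild-type pool 3 was not tested. With the Xist level in the fit, 23 of 33 genes were lower in null pools and the median change was -0.09. Xist was high in every null pool but only in wild-type pool 2 among wild-type pools, so this fit cannot cleanly separate it from genotype.

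Outside every list, genes were also apart in wild-type pool 3. Those furthest above the next pool were Ciart, a circadian repressor gene (7.13 there, 5.98 to 6.30 elsewhere), Pde4b, a cyclic AMP phosphodiesterase gene (6.11 and 5.22 to 5.28), Mfsd13a and Cav1, which encodes caveolin. Kbtbd11, Stc1 (stanniocalcin, a secreted factor), Igfbp2, Apold1, Gdap10, Sparcl1, Gadd45gip1 and Pcp4 came next, with gaps of 0.56 down to 0.40. Furthest below the other pools were Galc, at 3.17 against 4.47 to 6.05, Gga2, Rbp4, Rab39b, Inpp4b and Hnf4a, with gaps of 1.30 down to 0.39.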

How the data were processed

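Messenger RNA of 6 pools was measured on 6 arrays, 3 per group. The deposited table holds log2 values that the authors made by RMA (background correction, quantile normalization and probe summary) per the submitters' processing notes; the log base, RMA version and chip definition are not given in the sources used here, and log2 was taken because RMA returns it. Quantile normalization hides a shift shared by most genes. Of 45101 probe sets, the 64 controls were left out except 3 for Gapdh, since Gapdh had no other probe set with 1 symbol. Symbols came from the platform annotation. Of the 45040 probe sets fitted, 34948 had 1 symbol, 932 several and 9160 none. The brightest probe set of each of 18194 genes was fitted with limma 3.58.1 (R 4.3.3; lmFit, eBayes, no trend), with two-sided p-values adjusted by Benjamini-Hochberg over all genes and a threshold of 0.05. The median SE was 0.0782, limited by the number of arrays. An exact test of 1 gene with 3 pools against 3 cannot go below p = 0.1.

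The genes, lists and alternatives were chosen with earlier results of these data known, wild-type pool 3 included. Every listed gene is named; values by pool are given for up to 3 genes of each role with the largest change, and for both HIF subunits and both EGLN genes. Of each pathway and stress list, the 3 largest changes and, at a mean of at least 5, the 3 largest excesses of wild-type pool 3 are named, and cell type lists are given by counts. Of genes outside all lists, the 12 furthest above and the 6 furthest below the other pools are named. Alternatives were another scaling, a filter on dim genes, other variance models, array weights, other probe set choices, the Xist level, the pool number as a block and leaving out each pool.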

Additional observations from a re-analysis of the deposited data

How the results depend on the processing

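None of the 33 genes passed under any of the 16 alternatives; with 1 pool left out the smallest adjusted p by limma was 0.279, for Aldoc without wild-type pool 1. Wild-type pool 3 was highest for 32 genes under both other scalings and with probe sets averaged, for 28 of 29 with a mean of at least 5, and for 31 of 32 without probe sets ending in _x_at or _s_at; the median change was below 0 in all of these. The genes called in all, 19, became 36 with an intensity trend, 36 with array weights and 5 with the Xist level. They were 4 to 37 with 1 pool left out (37 without wild-type pool 1, 7 without wild-type pool 2 or 3, and 4, 10 and 9 without null pools 1, 2 and 3). With the pool number as a replicate block 9 genes and none of the 33 were called. The pairs of equal number had deviations correlated at -0.256, -0.095 and -0.154, and the numbers were not taken as a pairing. At an unadjusted p under 0.05 the 3 genes became 6 with probe sets averaged, 5 with median centring or an intensity trend, 0 with the Xist level and 0 to 12 with 1 pool left out. Shares of all genes at that p are not given for these fits, except without wild-type pool 3, so the counts are not read as particular to the 33. With 1 pool left out, 17 to 32 genes were lower in null pools and the median change was -0.37 to -0.00046. The 17 and the -0.00046 came without wild-type pool 3, where the median correlation was 0.61.

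Some single changes turned sign; none of these passed, and the cause was not tested unless a pool is named. Slc2a3 was -0.0091 and Ndrg1 -0.0067 after median centring, Hk1 0.019 after repeated quantile normalization, and Slc2a3 -0.014 and Hk1 0.011 with array weights. Slc2a3 was -0.11 and Ndrg1 -0.10 with all probe sets averaged, and Slc2a3 was -0.22 without probe sets ending in _x_at or _s_at. With the Xist level Hk1 was 0.058, Pfkl 0.047, Pfkp 0.14, Pgam1 0.028, Adm 0.12, Car9 0.11, Ddit4 0.10 and Bhlhe40 0.079. The Xist level was largely tied to genotype in these pools. With 1 pool left out the ranges that crossed 0 were -0.52 to 0.014 for Slc2a1, -0.21 to 0.22 for Slc2a3, -0.10 to 0.12 for Hk1, -0.59 to 0.024 for Hk2, -0.40 to 0.013 for Pfkl, -0.41 to 0.11 for Pfkp, -0.87 to 0.028 for Pfkfb3, -0.21 to 0.021 for Pgam1, -0.19 to 0.059 for Epas1, -0.21 to 0.061 for Egln1, -0.74 to 0.16 for Egln3, -0.31 to 0.12 for Adm, -0.26 to 0.0017 for Car9, -0.30 to 0.17 for Ddit4, -0.11 to 0.12 for Ndrg1, -0.45 to 0.14 for Bhlhe40 and -0.55 to 0.047 for Ankrd37. All but that of Car9 had their highest value without wild-type pool 3. The number of arrays and dim probe sets limit what can be seen.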
